A study of Mus musculus with 6 samples.

Results

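The miRNAs described here are the 4 let-7 passenger arms mmu-let-7c-2-3p, mmu-let-7d-3p, mmu-let-7e-3p and mmu-let-7i-3p, chosen by name as 4 of the 11 let-7 and miR-98 3p arms among the 810 miRNAs of the read-count table. Each was set against the 5p arm of its own hairpin in the same library. The RNA came from small extracellular vesicles (sEV) that cochlear explants of postnatal day 3 mice released into medium with sEV-depleted serum. The explants held the sensory epithelium, without the spiral ganglion. The Cis-sEV group (n = 3 libraries) was collected over 48 h in 50 µM cisplatin, a platinum drug that kills auditory hair cells, and the Ctrl-sEV group (n = 3 libraries) over 48 h in an equal volume of phosphate-buffered saline. Mice were of the ICR strain, and vesicles of about 80 explants were pooled for each library. Because every library is a mixture of vesicles, fewer releasing cells of a type and less RNA per vesicle cannot be told apart.

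A miRNA gene is transcribed into a precursor that folds back on itself as a hairpin. Drosha and Dicer trim the hairpin to a short duplex with one strand from its 5′ side (5p) and one from its 3′ side (3p). One strand, the guide, is loaded into an Argonaute protein and pairs with target mRNAs through its seed, bases 2 to 8, whereas the other, the passenger, is mostly degraded. In the let-7 family the guide is the 5p arm. It is known as a regulator of developmental timing that is held back by the RNA-binding protein LIN28, and in the cochlea the LIN28B/let-7 pair is known for its part in timing when progenitors of hair cells and supporting cells stop dividing. The 3p arms carry other seeds and therefore cannot pair with the let-7 targets through the let-7 seed.

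The sequences of the 4 passenger arms and of their guides are shown because they differ in what their seeds share. They were read from the deposited table, are identical to the RefSeq entries of GRCm38.p6, and are written 5′ to 3′ with the seed in capitals.
mmu-let-7d-3p: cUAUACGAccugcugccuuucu
mmu-let-7e-3p: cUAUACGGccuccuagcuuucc
mmu-let-7c-2-3p: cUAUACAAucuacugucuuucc
mmu-let-7i-3p: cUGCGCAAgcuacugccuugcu
mmu-let-7d-5p: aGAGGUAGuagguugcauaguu
mmu-let-7e-5p: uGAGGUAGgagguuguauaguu
mmu-let-7c-5p: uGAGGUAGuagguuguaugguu
mmu-let-7i-5p: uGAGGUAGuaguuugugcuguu
All 8 arms are 22 nt long. The 4 guides have 1 common seed, GAGGUAG, and are identical to each other at 72.7% to 90.9% of positions. The 4 passengers have 4 different seeds and are identical at 50.0% to 77.3% of positions. With positions counted from 1 at the 5′ end, the seed of mmu-let-7d-3p differs from that of mmu-let-7c-2-3p by A7G and that of mmu-let-7e-3p from mmu-let-7d-3p by A8G. No other miRNA of the table has the seed of mmu-let-7d-3p, mmu-let-7e-3p or mmu-let-7i-3p. The seed of mmu-let-7c-2-3p is also that of 4 others, namely mmu-let-7a-1-3p, mmu-let-7b-3p, mmu-let-7f-1-3p and mmu-miR-98-3p.

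The whole sequence of mmu-let-7c-2-3p is also the whole sequence of mmu-let-7a-1-3p, which comes from a different hairpin with a different guide. Reads of these 2 arms cannot be told apart, and the table lists 1456 reads for the first name and 1 read for the second. The deposited row of mmu-let-7a-1-3p has no sequence, so its arm and hairpin sequences were taken from RefSeq. The hairpins are shown with the 5p and 3p arms in capitals, together with the let-7d hairpin, which is a neighbour of let-7a-1 in the genome.
let-7c-2: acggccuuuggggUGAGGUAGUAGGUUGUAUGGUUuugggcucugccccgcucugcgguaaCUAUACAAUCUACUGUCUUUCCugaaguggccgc
let-7a-1: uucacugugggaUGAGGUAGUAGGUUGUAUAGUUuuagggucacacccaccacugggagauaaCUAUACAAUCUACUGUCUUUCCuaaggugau
let-7d: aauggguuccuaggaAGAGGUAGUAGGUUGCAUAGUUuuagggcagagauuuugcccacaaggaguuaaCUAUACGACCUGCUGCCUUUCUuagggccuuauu
The guide mmu-let-7c-5p has a pair of source hairpins as well, let-7c-2 on chromosome 15 and let-7c-1 on chromosome 16, so the ratio of mmu-let-7c-2-3p to its guide has both a numerator and a denominator with more than 1 possible source.

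In RefSeq positions on GRCm38, mmu-let-7d-3p lies at chr13:48536024-48536045 on the minus strand, in an exon of the long noncoding RNA gene 6720427I07Rik. Its hairpin stands with let-7f-1 and let-7a-1 within 2261 bases. The arm mmu-let-7c-2-3p lies at chr15:85706664-85706685 on the plus strand in an exon of the noncoding transcript Lncppara, with let-7b within 801 bases. The arm mmu-let-7e-3p lies at chr17:17830411-17830432 on the plus strand in an intron of the protein-coding gene Spaca6, with miR-99b and miR-125a within 692 bases. The arm mmu-let-7i-3p lies at chr10:122985642-122985663 on the minus strand in an exon of the transcribed pseudogene D630033A02Rik.

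Strand choice is known to depend on the first base of each strand and on how firmly its 5′ end is paired in the duplex. All 4 passengers begin with C, whereas 3 guides begin with U and mmu-let-7d-5p begins with A. In the predicted fold of each deposited hairpin, 3 of the first 4 bases of every guide were paired, against 4 of 4 in mmu-let-7d-3p, mmu-let-7e-3p and mmu-let-7c-2-3p and 3 of 4 in mmu-let-7i-3p. Of those pairs, G-C pairs numbered 1 at every guide and 1 at every passenger except mmu-let-7i-3p, which had 3.

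The Cis-sEV libraries held 1722359 to 1794175 miRNA reads and the Ctrl-sEV libraries 528952 to 718597, so that 3 reads, taken as the limit that a count of 0 allows, correspond to at most 1.74 and 5.67 CPM, the unit of reads scaled to an equal total in each library. Below, levels are CPM scaled with TMM factors, whereas these limits are scaled to library totals alone. The factors were 0.762 to 0.997 in Ctrl-sEV and 1.10 to 1.18 in Cis-sEV, so that on the TMM scale the limits are higher in Ctrl-sEV and lower in Cis-sEV. TMM factors come from a trimmed and weighted mean of the log ratios between libraries and do not force the median change to 0. A call needed a log2 fold change of at least 1 in either direction together with an adjusted p no higher than 0.05 in edgeR's quasi-likelihood test over 353 miRNAs with Benjamini-Hochberg adjustment. Over these 353 miRNAs the median log2 fold change of Cis-sEV against Ctrl-sEV was 0.44, and with scaling to library totals alone it was 0.79. Summed markers of cochlear hair cells (miR-183-5p, miR-96-5p and miR-182-5p, all 3 with reads) ranged from 50063 to 73388 CPM in Cis-sEV and from 55937 to 73140 CPM in Ctrl-sEV, but their log2 fold changes were -0.49, 2.08 and 0.18, and miR-96-5p was called. Summed markers of blood ranged from 977 to 1190 and from 1647 to 3733 CPM, with miR-144-3p at 0 in every Ctrl-sEV library. Neuronal markers ranged from 1350 to 1528 and from 1085 to 1503 CPM, with miR-124-3p at 0 in every Ctrl-sEV library, and mesenchymal markers from 472 to 3751 and from 198 to 2054 CPM. Of 3 muscle markers 2 had a row, and their sum ranged from 42.7 to 52.9 and from 0 to 2.79 CPM. Of the single markers 2 were called for blood, 1 for neurons and 2 for muscle by edgeR. The part of these cell types in the results on let-7 was not tested.

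The let-7 passengers were a small fraction of the vesicle miRNA and nearly all of them were counted under the 4 names described here. Summed over all 11 let-7 and miR-98 3p arms, Cis-sEV held 1.36, 2.27 and 2.02 passenger reads per 100 guide reads and Ctrl-sEV held 2.97, 2.60 and 4.14, so that every Cis-sEV library lay below every Ctrl-sEV library. Of single hairpins, 11.3% of the 133 tested lay below in every Cis-sEV library in this way. The guide reads are those of all 10 guides, including mmu-let-7g-5p (log2 fold change 0.75) and mmu-let-7k, which have no 3p row. The passenger sum is mostly 1 arm, since mmu-let-7d-3p made up 81.9% to 93.0% of the passenger reads of a library. The 4 members together made up 99.2% to 99.98%. The other 7 passengers had 56 reads in the Cis-sEV libraries together and 42 in the Ctrl-sEV libraries, none passed the filter on low counts, and 40 of the latter were mmu-let-7b-3p reads in Ctrl-sEV replicate 1.

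Within the family the order of the passengers did not follow the order of the guides. Over all libraries mmu-let-7d-3p had 38088 reads, mmu-let-7e-3p had 4252, mmu-let-7c-2-3p had 1456 and mmu-let-7i-3p had 127. The levels of neighbours in this order did not overlap in the Cis-sEV libraries. In the Ctrl-sEV libraries those of mmu-let-7c-2-3p and mmu-let-7i-3p overlapped, because both were at 0 in replicate 2. Yet mmu-let-7c-5p, the most abundant let-7 guide in both groups (51570 ± 2453 CPM for Cis-sEV, 110644 ± 24024 CPM for Ctrl-sEV, SD, n = 3), stood beside a passenger that held 0.301% of the reads of this pair of arms over all libraries, a pair that is not 1 hairpin alone. The 3p arm held 17.0% of the reads of the let-7d hairpin, 4.86% of let-7e and 0.0985% of let-7i. These shares sum the libraries and so weigh the deeper Cis-sEV libraries more. Among 133 hairpins with at least 15 reads on each arm the median share of the less abundant arm was 6.65%, and in order of that share let-7d stood at place 40, let-7e at 76, let-7c-2 at 114 and let-7i at 125. By the mean share over the libraries of a group the places were 46, 70, 107 and 123 of 131 in Cis-sEV. In Ctrl-sEV, where 90 hairpins had reads in every library, let-7d was at place 15, let-7e at 34, let-7c-2 at 60 and let-7i at 56. The median of these mean shares was 5.37% in Cis-sEV and 1.20% in Ctrl-sEV, where many less abundant arms were at 0. The let-7e mean share of 4.59% in Cis-sEV lay below the median there, and that of 6.32% in Ctrl-sEV lay above.

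**Figure D1:**
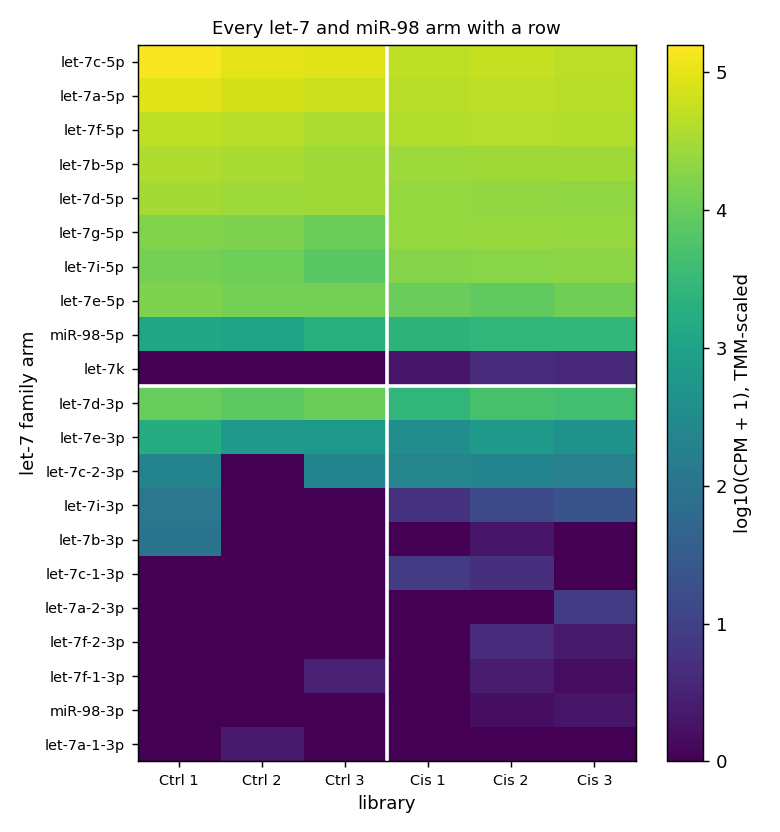
Levels of every let-7 and miR-98 arm in each library, as log10(CPM + 1) with TMM scaling (colour), guides above the white line and 3p arms below it, Ctrl-sEV libraries left and Cis-sEV libraries right. Every guide except let-7k has reads in all 6 libraries, and among the 3p arms let-7d-3p and let-7e-3p have reads in all 6 libraries.

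Hairpins of 1 cluster differed in how much passenger was counted. The let-7d, let-7f-1 and let-7a-1 hairpins are neighbours in 1 noncoding gene, yet mmu-let-7f-1-3p had 0, 3 and 1 reads in Cis-sEV and 0, 0 and 1 in Ctrl-sEV, where mmu-let-7d-3p had 3955 to 9110 in each library. On chromosome 15, mmu-let-7b-3p had 0, 2 and 0 reads in Cis-sEV and 40, 0 and 0 in Ctrl-sEV. Beside it, mmu-let-7c-2-3p had 387 to 464 in each Cis-sEV library and 91, 0 and 106 in Ctrl-sEV. The latter reads may also come from let-7a-1 on chromosome 13, so the contrast is not one of this cluster alone. On chromosome 17, next to let-7e, mmu-miR-99b-3p had 512, 365 and 438 reads in Cis-sEV and 1, 129 and 69 in Ctrl-sEV. Its 5p arm had 49642 to 52972 reads in the Cis-sEV libraries. The arm mmu-miR-125a-3p of the same cluster had 0, 9 and 28 reads in Cis-sEV and 0, 0 and 55 in Ctrl-sEV.

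**Figure D2:**
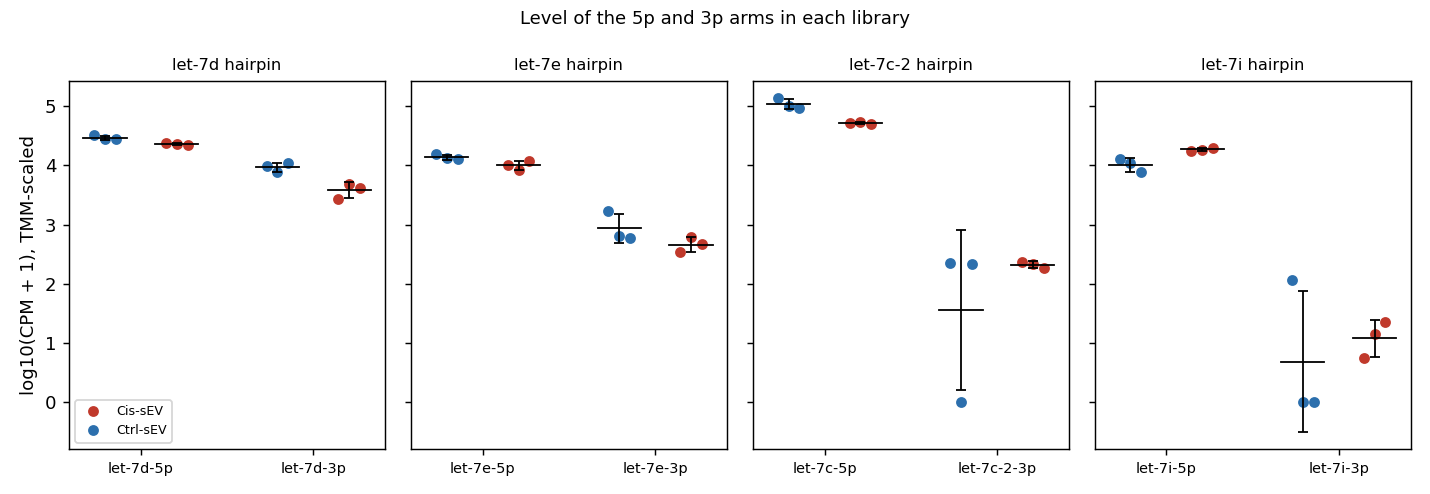
Level of the 5p arm and the 3p arm of each hairpin, as log10(CPM + 1) with TMM scaling on the vertical axis, with 1 point for each library and horizontal bars and whiskers for the mean ± SD of the logarithms (n = 3). The Cis-sEV points of let-7d-3p lie below all Ctrl-sEV points, and let-7c-2-3p and let-7i-3p each have Ctrl-sEV libraries at 0.

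Of the 4 passengers, 1 fell in Cis-sEV, mmu-let-7d-3p, and none rose. All 4 passed the filter on low counts and their median log2 fold change was -1.15, beside 0.44 over all 353 miRNAs tested. Of those 353 miRNAs, 6.52% were called lower and 23.5% higher in Cis-sEV. The range over the 4 members ran from -1.52 for mmu-let-7i-3p to 0.52 for mmu-let-7c-2-3p.

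The let-7d passenger, the most abundant let-7 3p arm, was lower in Cis-sEV while its guide moved less. Read counts of mmu-let-7d-3p were 5326, 9110 and 8927 in Cis-sEV and 3955, 5506 and 5264 in Ctrl-sEV, which gave 2676, 4821 and 4217 CPM against 9619, 7687 and 10866 CPM. Every Cis-sEV library was below every Ctrl-sEV library, and Cis-sEV replicate 1 was lowest. Of the 353 miRNAs tested, 12.5% were below in every Cis-sEV library in this way and 37.7% above in every one. Mean levels of 3905 ± 1106 CPM for Cis-sEV and 9391 ± 1602 CPM for Ctrl-sEV (SD, n = 3) differed by -1.27 on the log2 scale (SE 0.25, adjusted p = 0.00993 by edgeR's quasi-likelihood test). By mean level it stood at place 41 of the miRNAs in Cis-sEV and at place 28 in Ctrl-sEV. With scaling to library totals the log2 fold change was -0.91 (adjusted p = 0.0293 by edgeR) and no longer reached the limit of 1. With DESeq2 it was -1.35 (adjusted p = 0.0759), and without Cis-sEV replicate 3 it was -1.19 (adjusted p = 0.0587 by edgeR), so that neither gave a call.

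Its guide mmu-let-7d-5p had 47719, 43916 and 46910 reads in Cis-sEV and 13254, 19857 and 13652 in Ctrl-sEV. In CPM every Cis-sEV library of the guide was below every Ctrl-sEV library, as in 12.5% of the 353 miRNAs tested. Its log2 fold change was -0.35 (SE 0.13, adjusted p = 0.0772 by edgeR). It was -0.41 with DESeq2 size factors and -0.38 with TMMwsp (adjusted p = 0.0248 and 0.0378 by edgeR). With scaling to library totals it was 0.0046, so no direction was given to it. The ratio of the arms does not depend on scaling between libraries. The 3p share of the let-7d reads was 10.0%, 17.2% and 16.0% in Cis-sEV and 23.0%, 21.7% and 27.8% in Ctrl-sEV, with a Wilson 95% interval of 9.79% to 10.3% for the lowest value and of 27.2% to 28.5% for the highest. That is 9.0, 4.8 and 5.3 guide reads for each passenger read in Cis-sEV and 3.4, 3.6 and 2.6 in Ctrl-sEV. Again no Cis-sEV library overlapped with Ctrl-sEV, and replicate 1 of Cis-sEV stood apart from the other two.

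The let-7d arm ratio was not called in the test over all hairpins. The log2 ratio of 3p to 5p reads was -2.61 ± 0.48 in Cis-sEV and -1.66 ± 0.25 in Ctrl-sEV (SD, n = 3), a change of -0.95 (SE 0.27, adjusted p = 0.0887 by limma over 133 hairpins). Every Cis-sEV library was below every Ctrl-sEV library in 11.3% of the 133 hairpins, and let-7d was the 1 member among them. With the hairpins limited to those with at least 5 reads on each arm in every library, the same change had an adjusted p of 0.0200, still under the limit of 1 on its size, and with no trend in the fit an adjusted p of 0.475 (both by limma). Leaving out 1 library at a time gave changes from -1.12 to -0.67.

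The let-7e passenger pointed the same way in its means, but the groups overlapped. Read counts of mmu-let-7e-3p were 689, 1147 and 977 in Cis-sEV and 687, 464 and 288 in Ctrl-sEV, or 346, 607 and 461 CPM against 1671, 648 and 595 CPM. Ctrl-sEV replicate 1 was far above the other libraries, and Cis-sEV replicate 2 lay above Ctrl-sEV replicate 3. Means were 472 ± 131 and 971 ± 607 CPM (SD, n = 3), and the log2 fold change of -1.04 (SE 0.49) had an adjusted p of 0.166 by edgeR. It was -0.47 without Ctrl-sEV replicate 1.

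Its guide mmu-let-7e-5p had 20058, 15890 and 25255 reads in Cis-sEV and 6290, 9422 and 6242 in Ctrl-sEV. In TMM-scaled CPM every Cis-sEV library of this guide was below every Ctrl-sEV library, as in 12.5% of the 353 miRNAs tested. The groups overlapped with scaling to library totals alone. Its log2 fold change was -0.44 (SE 0.17, adjusted p = 0.0842 by edgeR), and -0.08 with scaling to library totals. The 3p share was 3.32%, 6.73% and 3.72% in Cis-sEV and 9.85%, 4.69% and 4.41% in Ctrl-sEV. Each group thus had 1 library that stood above its other two, and the ranges overlapped. The log2 arm ratio changed by -0.46 (SE 0.54, adjusted p = 0.779 by limma), and by -0.06 without Ctrl-sEV replicate 1.

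The level of the let-7c-2 passenger did not pass the test while the guide let-7c-5p fell, and 1 control library without any passenger read set the size of that difference. Read counts of mmu-let-7c-2-3p were 464, 408 and 387 in Cis-sEV and 91, 0 and 106 in Ctrl-sEV, or 233, 216 and 183 CPM against 221, 0 and 219 CPM. Apart from Ctrl-sEV replicate 2 the libraries lay within 183 to 233 CPM. The means of 211 ± 25.6 and 147 ± 127 CPM (SD, n = 3) gave a log2 fold change of 0.52 (SE 1.56, adjusted p = 0.865 by edgeR). The guide mmu-let-7c-5p had 102390, 102190 and 104113 reads in Cis-sEV and 56841, 71113 and 45735 in Ctrl-sEV. Its log2 fold change of -1.10 (SE 0.18, adjusted p = 0.00551 by edgeR) was called. That call was lost with scaling to library totals (-0.74), with DESeq2 (-1.16, adjusted p = 0.0884), on leaving out replicate 3 of Cis-sEV (-0.95) or replicate 1 of Ctrl-sEV (-0.98).

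The 3p share of the let-7c-2 pair was 0.451%, 0.398% and 0.370% in Cis-sEV and 0.160%, 0% and 0.231% in Ctrl-sEV. Every Cis-sEV library was above every Ctrl-sEV library, as was the case in 20.3% of the 133 hairpins. The 0 of Ctrl-sEV replicate 2 stood beside 71113 guide reads, which allows a share of up to 0.00422%, and at the arm ratio of the other two Ctrl-sEV libraries 137 reads would have been counted. Of the 135 miRNAs with at least 50 reads in both of those libraries, 6 were at 0 in replicate 2, or 4.44%. The same count was 10 of 143 for Ctrl-sEV replicate 1 and 3 of 134 for replicate 3, and it was 0 of 244 to 248 for the Cis-sEV libraries. The 1 read listed under the identical sequence mmu-let-7a-1-3p was in Ctrl-sEV replicate 2.

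On the log2 scale the let-7c-2 arm ratio was -7.78, -7.97 and -8.07 in Cis-sEV and -9.28, -17.12 and -8.75 in Ctrl-sEV, where the middle value rests on the 0.5 reads added to both arms. The change was 3.77 (SE 2.34, adjusted p = 0.425 by limma). Without Ctrl-sEV replicate 2 it was 1.07 (adjusted p = 0.296 by limma), which is not a call either. Summing the 2 names of the identical sequence, a choice made after seeing the data, gave 3.25 (adjusted p = 0.381 by limma).

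The let-7i passenger was near the limit of detection beside a guide that was well covered. Read counts of mmu-let-7i-3p were 9, 25 and 46 in Cis-sEV and 47, 0 and 0 in Ctrl-sEV, or 4.52, 13.2 and 21.7 CPM against 114, 0 and 0 CPM. The highest and the lowest level were both in Ctrl-sEV, so the groups overlapped. The log2 fold change of -1.52 (SE 2.10, adjusted p = 0.699 by edgeR) rested on Ctrl-sEV replicate 1, without which both remaining Ctrl-sEV libraries were at 0 and the fitted direction turned. Its sign also turned under limma-voom (1.24) and in the fit with the replicate number as a block (3.70).

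The guide mmu-let-7i-5p had 35279, 34905 and 41725 reads in Cis-sEV and 5271, 7970 and 3670 in Ctrl-sEV. In CPM every Cis-sEV library was above every Ctrl-sEV library, as in 37.7% of the 353 miRNAs tested. Its log2 fold change of 0.83 (SE 0.21, adjusted p = 0.0194 by edgeR) was under the limit of 1 and reached 1.18 with scaling to library totals. The 3p share was 0.0255%, 0.0716% and 0.110% in Cis-sEV. In Ctrl-sEV it was 0.884% in replicate 1 and 0% in replicates 2 and 3, where 7970 and 3670 guide reads allow shares of up to 0.0376% and 0.0817%. The limit of Ctrl-sEV replicate 2 lies under the shares of Cis-sEV replicates 2 and 3, and that of Ctrl-sEV replicate 3 lies under Cis-sEV replicate 3 alone. Both lie above the share of Cis-sEV replicate 1, so a share that low could not be told from 0 in these 2 libraries. The change of the log2 ratio was 0.50 (SE 2.07, adjusted p = 0.957 by limma), and its sign turned with a pseudocount of 1 read (-0.13).

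**Figure D3:**
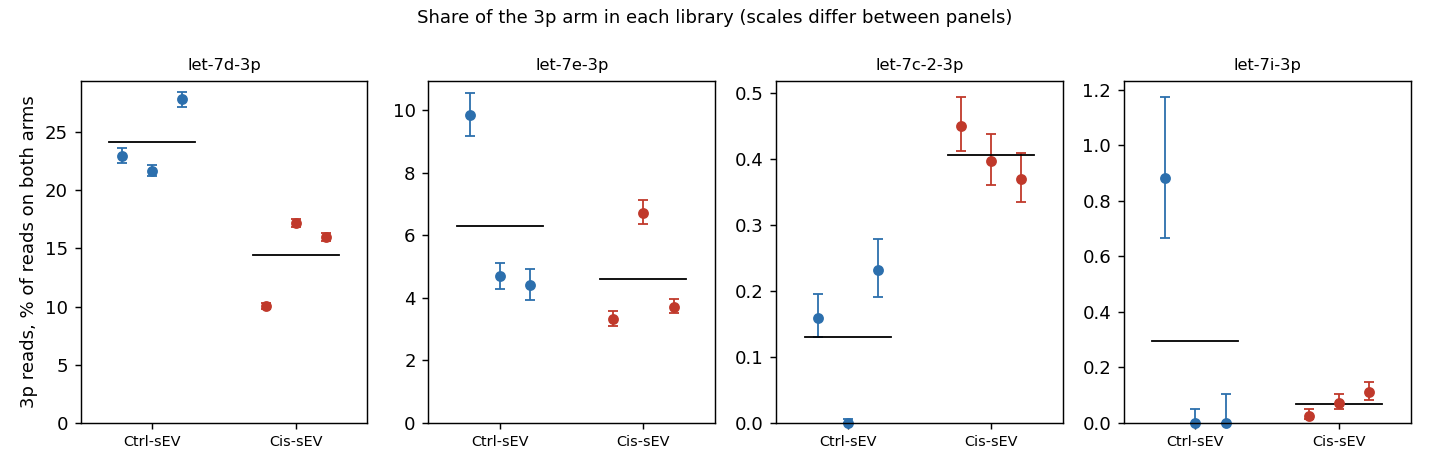
Share of the 3p arm in the reads of both arms of each hairpin (vertical axis, percent, a scale of its own in each panel) with 1 point for each library, Wilson 95% intervals for counting error as whiskers and the group mean as a horizontal bar. For let-7d-3p and let-7c-2-3p the groups do not overlap and lie in opposite orders, and for let-7e-3p and let-7i-3p 1 Ctrl-sEV library lies above all others.

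The 4 arm ratios therefore had no common direction. In the Cis-sEV libraries the let-7d ratio lay lower than in all Ctrl-sEV libraries, the let-7c-2 ratio lay higher, and the let-7e and let-7i ratios overlapped. The difference in direction between hairpins was not tested. None of the 4 ratios was called, where 6.77% of the 133 hairpins were called, 9 in all. In each of these 9 an arm was at 0 in at least 1 Ctrl-sEV library, in 7 in every one. The fitted sizes of these changes thus depend on the reads added to both arms. Both arms were at 0 in a Ctrl-sEV library in 2 of the 9. In 1 of these 2 that held in every Ctrl-sEV library, so that no control ratio was measured. Where 1 arm alone was at 0, the reads of the other arm limited the ratio. For example, mmu-miR-100-3p had 0 reads beside 3151, 3427 and 3918 of mmu-miR-100-5p in Ctrl-sEV. In Cis-sEV it had 451, 389 and 388 reads beside 20117, 19715 and 19293. All 9 had the higher fitted ratio in Cis-sEV. With at least 5 reads on each arm in every library none of them was tested, and 2 other hairpins were called higher and 4 lower. With a pseudocount of 1 read 9 were called higher and 3 lower. Of the 133 hairpins tested, 115 had an arm at 0 in at least 1 Ctrl-sEV library, and let-7d and let-7e did not. The median change of the 4 log2 ratios was 0.02, beside 0.22 over the 133 hairpins.

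The spread of the let-7c-2 and let-7i ratios between control libraries was wide, and that of let-7d was not. The SD of the log2 ratio was 0.14 in Cis-sEV and 4.69 in Ctrl-sEV for let-7c-2, and 1.05 and 3.86 for let-7i. For let-7d it was 0.48 and 0.25, and for let-7e 0.58 and 0.69. Over the 133 hairpins the median SD was 0.97 in Cis-sEV and 2.37 in Ctrl-sEV, with the larger value in Ctrl-sEV in 88. Outside the let-7 family, 14 to 16 of 126 less abundant arms were at 0 in a Cis-sEV library and 74 to 88 in a Ctrl-sEV library. The Cis-sEV libraries also had more reads, and the part of depth in these values was not tested.

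**Figure D4:**
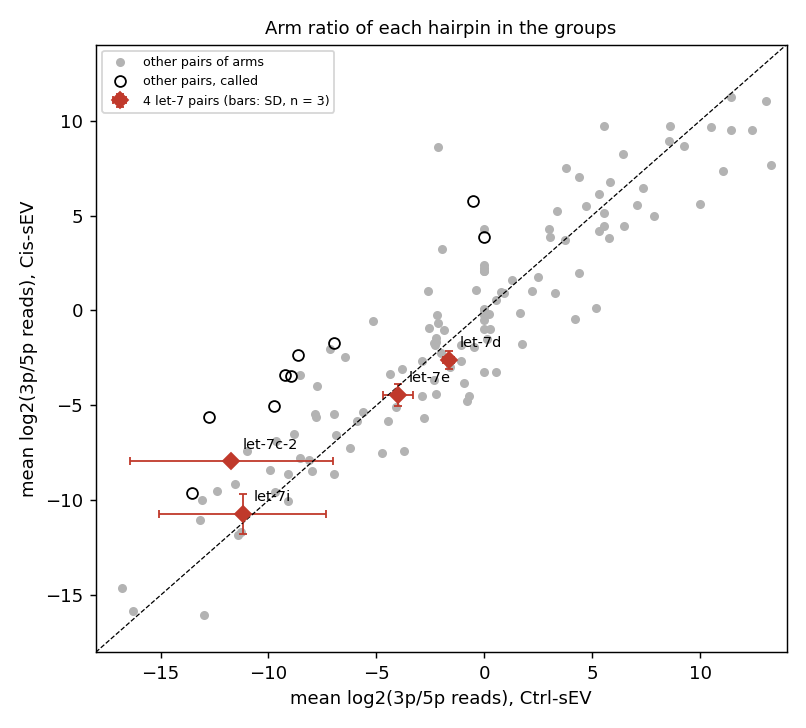
Mean log2 ratio of 3p to 5p reads of 133 hairpins in Ctrl-sEV (horizontal axis) and Cis-sEV (vertical axis), with the let-7 pairs as red diamonds with SD bars (n = 3), called pairs as open circles and a dashed line of equal ratios. let-7d and let-7e lie under the line with short bars, let-7c-2 above it and let-7i near it with long horizontal bars, and the 9 open circles, each with an arm at 0 reads in at least 1 Ctrl-sEV library, lie above it. When every library must hold at least 5 reads on each arm, none of these 9 is tested, and 2 other hairpins are called higher and 4 lower.

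The other let-7 guides also moved in both directions. Of the 10 guides with a row, 9 were tested. By adjusted p alone, without the limit on the fold change, 3 were higher and 2 lower by edgeR, where 26.3% of the 353 miRNAs were higher and 8.5% lower, and mmu-let-7c-5p was the 1 that also passed the limit of 1 on the log2 fold change. The lower ones were mmu-let-7c-5p and mmu-let-7a-5p (-0.75), the guide of the hairpin whose passenger equals mmu-let-7c-2-3p. The higher ones were mmu-let-7i-5p, mmu-let-7g-5p (0.75) and mmu-miR-98-5p (0.89). The median log2 fold change of the 9 guides was -0.24.

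The miRNAs whose levels followed the passengers most closely over the 6 libraries were found by the root mean square distance between log2(CPM + 1) profiles centred on their own means. For mmu-let-7d-3p they were mmu-miR-92a-3p (distance 0.20), mmu-miR-126a-3p (0.25) and mmu-miR-181a-1-3p (0.26), where the median distance to all miRNAs tested was 2.39. Their log2 fold changes were -1.43, -1.28 and -1.62. miR-92a belongs to the miR-17-92 cluster and miR-126a is known from endothelial cells, and mmu-miR-181a-1-3p is itself a 3p arm of a hairpin known for its 5p guide. For mmu-let-7e-3p the closest were mmu-miR-92b-3p (0.33), mmu-let-7c-5p (0.38) and mmu-miR-375-3p (0.40). For mmu-let-7c-2-3p they were mmu-miR-744-5p (0.42), mmu-miR-433-3p (0.43) and mmu-miR-361-5p (0.55), and the first 2 were also at 0 in Ctrl-sEV replicate 2. For mmu-let-7i-3p, a predicted miRNA, mmu-miR-7043-3p and mmu-miR-379-3p stood at 0.62 to 0.85, at mean levels of at most 97.3 CPM in a group.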

How the data were processed

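Small RNA of 18 to 30 nt from sEV was sequenced in 3 Cis-sEV and 3 Ctrl-sEV libraries, grouped by their labels. The authors deposited raw read counts per mature miRNA, whole numbers without normalization. Their processing notes name Bowtie2 and GRCm38.p6. How reads that fit several hairpins were assigned is not given in the sources used here. The authors' mean values per group in the same table were not used. PCR copies were not told apart, so intervals and limits cover counting error only.

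All counts were fitted with edgeR 4.0.16 (R 4.3.3, TMM, filterByExpr, quasi-likelihood test). Arm ratios, log2((3p + 0.5)/(5p + 0.5)), were fitted with limma 3.58.1 with a trend on the level of the less abundant arm, over all hairpins with at least 15 reads on each arm. Both used Benjamini-Hochberg adjustment and were tested on simulated data. Shares have Wilson 95% intervals, and 3 reads were taken as the limit for a count of 0. Folds were predicted with RNAfold 2.7.2. Alternatives were other scalings, filters, pseudocounts and denominators, DESeq2 1.42.0, limma-voom, edgeR's diffSpliceDGE, a replicate block and each library left out. Named were the 4 members, every other let-7 and miR-98 arm, arms of neighbouring hairpins and the 3 nearest profiles of each member. The members and lists were chosen with earlier results of these data known. All 21 let-7 and miR-98 names matched RefSeq. Replicates within a group differed by more than sampling noise. The study describes them as biological replicates.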

Additional observations from a re-analysis of the deposited data

How the results depend on the processing

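The let-7i and let-7c-2 values rest on control libraries at 0, for let-7c-2 on Ctrl-sEV replicate 2, the control with the most reads. With scaling to library totals, the log2 fold change was -0.91 for mmu-let-7d-3p, -0.74 for mmu-let-7c-5p, 1.18 for mmu-let-7i-5p and 0.0046 for mmu-let-7d-5p, and 97 miRNAs were called higher and 11 lower in place of 83 and 23. With DESeq2, mmu-let-7d-3p (-1.35) and mmu-let-7c-5p (-1.16) lost their calls, and with no limit on the fold change mmu-let-7i-5p (0.83) was called. For mmu-let-7i-3p the sign of the level turned under limma-voom (1.24) and the replicate block (3.70), and that of the arm ratio with a pseudocount of 1 (-0.13), with diffSpliceDGE (-1.47), without Ctrl-sEV replicate 2 (-0.88) and without Ctrl-sEV replicate 3 (-0.32). The cause was not tested. Without Ctrl-sEV replicate 1 its fitted level was 7.24 against libraries at 0, which is no bound.

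Leaving out 1 library at a time gave levels from -1.55 to -1.04 for mmu-let-7d-3p, from -1.34 to -0.47 for mmu-let-7e-3p, from 0.02 to 1.17 for mmu-let-7c-2-3p and from -1.88 to 7.24 for mmu-let-7i-3p. For the guides the ranges were -1.24 to -0.95 for mmu-let-7c-5p, -0.52 to -0.20 for mmu-let-7d-5p, -0.60 to -0.38 for mmu-let-7e-5p and 0.71 to 0.99 for mmu-let-7i-5p. Arm ratios ranged from 1.07 to 5.26 for let-7c-2, from -1.12 to -0.67 for let-7d, from -0.79 to -0.06 for let-7e and from -0.88 to 2.71 for let-7i. The number of miRNAs called, 106, ranged from 53 (without Cis-sEV replicate 1) to 169 (without Ctrl-sEV replicate 3), with 57 without Cis-sEV replicate 2 and 70 without replicate 3. The number of hairpins called, 9, ranged from 0 (without Cis-sEV replicate 1 or 3, by limma) to 17 (without Ctrl-sEV replicate 3), and was 14 without Ctrl-sEV replicate 2. At an unadjusted p under 0.05 limma gave 33 hairpins with all libraries.

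With limma-voom 43 miRNAs were called, 30 higher and 13 lower. Deviations from the group means correlated at -0.05, -0.18 and -0.01 between same-numbered libraries. Between differently numbered ones the correlations ran from -0.12 to 0.16. With 3 libraries centred in each group, these values cannot settle whether the numbers pair the samples, and the labels state no pairing. With the replicate block 24 miRNAs were called, 13 higher and 11 lower, and 0 hairpins by limma. With diffSpliceDGE 1 hairpin was called. In the main fit 9 hairpins were called, all higher. None of them has at least 5 reads on each arm in every library, and under that limit 2 other hairpins were called higher and 4 lower. Calls numbered 9 higher and 3 lower with a pseudocount of 1, 10 and 2 with no minimum and 10 and 3 with no trend.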
